A study of Mus musculus with 8 samples.

Results

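Interferon-induced genes and interferon-inducible GTPases were examined in gallbladder RNA of leptin-deficient mice given leptin or saline. The set held 40 mouse genes, listed by name, and every probe set annotated to 1 of them alone was taken. Of these, 37 genes had such a probe set, 59 probe sets in all out of 45101 on the array (18193 genes). Tgtp1 and Isg15 each had only a probe set that also names a second gene, and Ifi44 had none here, so no value is given for these 3. The genes were described as 5 regulators of transcription, 27 antiviral genes (4 of them sensors of foreign nucleic acid) and 8 GTPases induced by interferon gamma.

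All mice were female and of the strain B6.V-lepob, whose obese mutation removes functional leptin, and saline and leptin mice carried it alike. The leptin group received recombinant mouse leptin into the peritoneum each day for 4 weeks at 5 µg per g body weight (12 mice), and the saline group received saline (12 mice). Mice arrived at 7 weeks of age, acclimated for 1 week and were sampled at 12 weeks after a night without food. RNA of 3 gallbladders was pooled for each Affymetrix Mouse Genome 430 2.0 array, giving 4 saline pools (numbered 1 to 4) and 4 leptin pools (5 to 8), so the spread between single mice cannot be seen. A lean or pair-fed group was not analysed here.

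Interferons are secreted proteins that warn cells of infection. Type I and type III interferons act through receptors that assemble the factor ISGF3, which holds STAT2 and IRF9 and binds the interferon-stimulated response element (ISRE) of antiviral genes. Interferon gamma, made mainly by T and NK cells, acts on gamma-activated sites (GAS) and through IRF1, and in mice it strongly induces the immunity-related and guanylate-binding GTPases, which attack vacuoles that hold intracellular parasites and bacteria. Many of these genes are also transcribed at a low level in resting epithelial cells and macrophages.

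The start regions of the genes show which of these elements they carry. The 160 bases before the annotated start are printed for 3 immunity-related GTPase genes that share a compound element (Igtp, Irgm2 and, for its sequence only, Tgtp1), for both guanylate-binding protein genes of the set, and for Ifit3 and Rsad2, antiviral genes that were higher with leptin. Sequences are those of RefSeq on assembly GRCm38.p6, 5′ to 3′ on the strand of the gene. Capitals mark ISRE cores (GAAA, any 2 bases and GAAA, on either strand) and GAS (TTCNNNGAA, which is its own reverse complement); overlapping matches run together.
Igtp: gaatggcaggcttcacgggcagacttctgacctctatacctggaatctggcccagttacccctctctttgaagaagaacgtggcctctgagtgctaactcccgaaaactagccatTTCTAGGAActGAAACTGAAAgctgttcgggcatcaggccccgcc
Irgm2: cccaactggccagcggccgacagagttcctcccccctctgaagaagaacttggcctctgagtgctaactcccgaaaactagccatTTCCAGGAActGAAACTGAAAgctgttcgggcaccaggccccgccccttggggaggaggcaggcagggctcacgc
Tgtp1: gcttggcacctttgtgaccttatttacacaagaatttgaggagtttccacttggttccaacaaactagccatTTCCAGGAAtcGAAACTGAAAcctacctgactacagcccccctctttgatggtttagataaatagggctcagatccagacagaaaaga
Gbp2: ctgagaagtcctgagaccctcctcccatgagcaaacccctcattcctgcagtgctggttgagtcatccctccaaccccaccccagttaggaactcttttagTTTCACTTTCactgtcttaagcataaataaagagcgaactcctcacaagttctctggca
Gbp3: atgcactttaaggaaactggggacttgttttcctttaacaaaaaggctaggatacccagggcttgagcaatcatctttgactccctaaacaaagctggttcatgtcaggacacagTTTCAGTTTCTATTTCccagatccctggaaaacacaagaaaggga
Ifit3: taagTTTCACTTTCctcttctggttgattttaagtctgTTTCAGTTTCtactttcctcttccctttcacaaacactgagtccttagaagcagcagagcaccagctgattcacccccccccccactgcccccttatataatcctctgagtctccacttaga
Rsad2: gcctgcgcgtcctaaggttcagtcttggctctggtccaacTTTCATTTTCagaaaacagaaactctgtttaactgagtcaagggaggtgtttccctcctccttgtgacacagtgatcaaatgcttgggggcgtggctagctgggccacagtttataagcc

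These stretches lie at chr11:58199396-58199555 (Igtp, plus strand), chr11:58214817-58214976 (Irgm2, plus), chr11:48992247-48992406 (Tgtp1, minus), chr3:142620503-142620662 (Gbp2, plus), chr3:142559884-142560043 (Gbp3, plus, the first of its annotated starts), chr19:34583369-34583528 (Ifit3, plus) and chr12:26456453-26456612 (Rsad2, minus). In Igtp, Irgm2 and Tgtp1 a GAS is followed by 2 bases and then an ISRE core. Over all 32851 promoters of the table, read over 250 bases before the start, this arrangement occurred in 5 (0.0152%). They were those of Igtp, Irgm2, Tgtp1, Tgtp2 and Gm12185. The arrangement was searched for after it was seen in Igtp and Irgm2. Igtp and Irgm2 are neighbours on chromosome 11, with 0 other coding genes between them.

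An ISRE core was found before 6 of 7 GTPase genes with a promoter in the table (85.7%), 7 of 17 antiviral genes (41.2%) and 1 of 5 regulators (20%), against 3.46% of 27025 genes in all. A GAS was found before 3 of 7 GTPase genes, 4 of 17 antiviral genes and 2 of 5 regulators, against 8.13% of all genes. Among members called higher, 6 of 11 with a promoter held an ISRE core, and among tested members that were not called it was 5 of 13. Those counts cover 29 members with a promoter here. A match is a description of letters and not a mapped binding site.

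As for the arrays, values are signals from MAS 5.0 or Gene Chip Operating Software (called MAS 5.0 signals here) on a linear scale, scaled by the authors to a trimmed mean near 250. The median signal lay between 77.8 and 87.3 in saline pools and between 94 and 107 in leptin pools. The share of probe sets at a background signal of 46 or more was 63.28 to 66.85% with saline and 68.43 to 71% with leptin. For the median signal and for this share the two-sided exact permutation p was 0.0286 (adjusted 0.0572 over 4 array measures). Leptin 7 stood apart from the other 7 arrays on the second principal component (-49.1 against -12.6 to 23.7). The ratio of the 3' to the 5' actin probe sets, a measure of RNA breakdown, was 1.6 ± 0.0882 (SD, n = 4) with saline and 1.89 ± 0.207 (SD, n = 4) with leptin (two-sided exact permutation p = 0.0571, adjusted 0.0761 over 4 array measures; the smallest p possible is 0.0286). The GAPDH ratio was 0.813 ± 0.0409 (SD, n = 4) with saline and 0.818 ± 0.0248 (SD, n = 4) with leptin (two-sided exact permutation p = 0.857). Results with the actin ratio in the model (the actin covariate), and without leptin 7, are given for members whose call or value they change most; the part of the ratio in the results was not tested otherwise. The keratin genes Krt8, Krt18 and Krt19, the brightest of the gallbladder epithelium list, had mean signals of 9025, 8748 and 8155 in saline pools and 6027, 6851 and 6186 in leptin pools. All leptin pools lay below all saline pools for these 3, and Krt8 and Krt18 were called lower. Krt7 of the same list was called lower too, at -0.96. Its other genes Epcam, Muc1, Sox17, Cftr and Cdh1 lay between -0.174 and 0.028 with overlapping groups and were not called. Of the hepatocyte list 1 of 5 tested genes was called higher (Apoa1, 10012 with saline and 16016 with leptin) and 0 lower (1 at an unadjusted p below 0.05), while Alb was at 18442 and 18859. The list's summed signal was 48948 to 75918 with saline and 65230 to 71174 with leptin. Over all tested genes 4.29% were called higher and 3.98% lower. A pool counted as above background for a probe set at a signal of 46 or more.

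Log2 fold changes are leptin minus saline from limma, fitted to log2(signal + 8.2) over 22519 probe sets, with their standard error (SE) and a Benjamini-Hochberg adjusted p called below 0.05; folds of dim genes are understated on this scale. Each gene is read from its brightest probe set. Of the 37 genes, 31 were bright enough on average to be tested, and 4 of these (Gbp3, Ifi47, Ifit3 and Usp18) would not have been from their saline pools alone, so counts over tested genes describe and support nothing. Called higher were 14 of 31 tested members, against 4.29% of all 11719 tested genes. A member not called is not thereby shown to be unchanged. Called lower were 0 of 31 by limma, against 3.98% of all (8.27% in either direction), and 0 also at an unadjusted p below 0.05. In 17 members all leptin pools lay above all saline pools, against 8.45% of all tested genes. Over single probe sets, 19 of 45 tested were called higher (3.54% of all) and 0 lower (3.39% of all). With p-values adjusted over the tested genes in place of all probe sets, 15 members were called higher. The median log2 fold change was 1.14 over 7 GTPase genes, 0.51 over 19 antiviral genes and 0.57 over 5 regulators, against 0.02 over all tested genes. In bulk RNA, more cells that express a gene and more RNA per cell cannot be told apart.

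**Figure D1:**
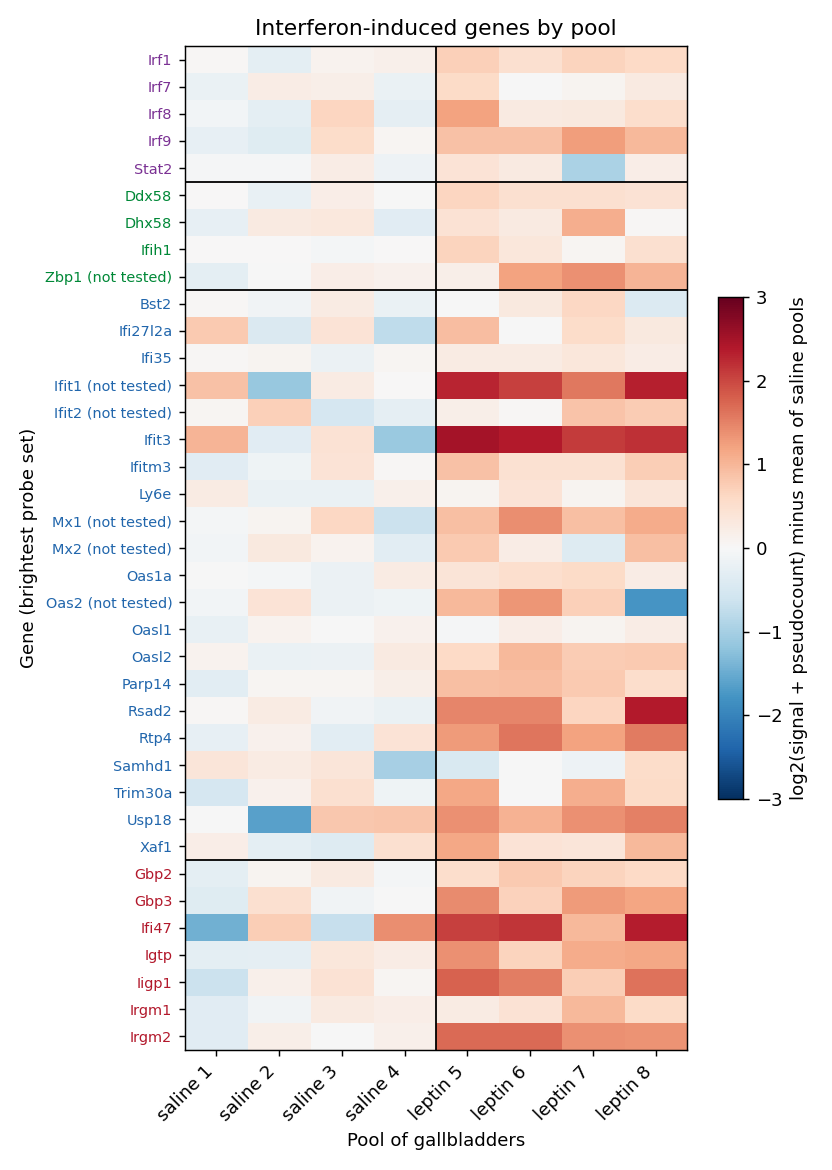
Log2 signal of each of the 37 genes in each pool, as the difference from the mean of the 4 saline pools, with saline pools left and leptin pools right and names coloured by role (violet regulators, green sensors, blue antiviral, red GTPases). Of the 31 tested genes, 17 have all 4 leptin pools above all 4 saline pools, while Stat2 (leptin 7) and Samhd1 (saline 4) have single pools that stand low.

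Among the regulators, Irf9 and Irf1 rose and the other 3 did not pass. Irf9 encodes the DNA-binding part of ISGF3. Its signal was 148, 138, 267 and 185 in saline pools 1 to 4 and 334, 336, 435 and 356 in leptin pools 5 to 8. All leptin pools lay above all saline pools, saline 3 being the highest of its group. The log2 fold change was 0.99 ± 0.20 (SE), from a mean of 184.5 ± 58.6 (SD, n = 4) to 365 ± 47.8 (SD, n = 4), with a limma adjusted p of 0.0112.

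Irf1, a factor induced by interferon gamma that itself binds ISREs, read 537, 430, 564 and 591 with saline and 871, 737, 847 and 808 with leptin. The groups did not overlap and the log2 fold change was 0.62 ± 0.13 (limma adjusted p = 0.0137). With the actin ratio in the model the log2 fold changes were 0.63 for Irf1 and 1.04 for Irf9, and the limma adjusted p rose to 0.111 and 0.0931. Centred on array medians, Irf1 was at an adjusted p above 0.05 as well.

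Irf7, the factor that amplifies type I interferon production, was at 0.23 ± 0.18 (95% interval -0.16 to 0.62, limma adjusted p = 0.47), and -0.02 when arrays were centred on their medians. Its pools ran from 174 to 238 with saline and from 200.5 to 303 with leptin, so the groups overlapped. Irf8, a factor of macrophages, dendritic cells and B cells, was at 0.57 ± 0.27 (adjusted p = 0.219) and at -0.06 with the actin covariate. Stat2, a subunit of ISGF3, was at -0.02 ± 0.30 (95% interval -0.66 to 0.63). There the leptin 7 pool read 51.2 and the other leptin pools 124.5 to 146, and without leptin 7 the value was 0.30 (adjusted p = 0.443).

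Of the 4 sensors, Ddx58 rose and Ifih1, Dhx58 and Zbp1 did not pass or were too dim. Ddx58, which encodes the RNA sensor RIG-I, read 276, 232, 315 and 271 with saline and 431, 384, 384 and 372 with leptin. No pool overlapped, and the log2 fold change was 0.51 ± 0.14 (limma adjusted p = 0.0434). The call was lost in 14 of 20 alternative settings, 7 of them without a single pool (each but saline 3), with an adjusted p of up to 0.316. A second tested Ddx58 probe set was at 0.57 (adjusted p = 0.322).

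Ifih1, which encodes the long-RNA sensor MDA5, was nearly constant in saline pools (469 to 492) and read 772, 614, 510 and 679 with leptin. The groups did not overlap, but the log2 fold change of 0.39 ± 0.14 did not pass (limma adjusted p = 0.114). Without leptin 7, the lowest leptin pool, it was 0.49 and passed (adjusted p = 0.0423). Dhx58, a regulator of both sensors, was at 0.45 ± 0.26 (adjusted p = 0.323; 0.24 without leptin 7). A second, untested Dhx58 probe set read 7.7 to 74 with saline and 100.1 to 123 with leptin, at least 2.17-fold higher with saline pools 3 and 4 under background. Zbp1, a sensor of Z-form nucleic acid, was too dim to test, with saline pools 1 and 2 below background: its signals were 36 to 54.6 with saline and 53.6 to 132.5 with leptin.

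Ifit3, Rsad2 and Rtp4 had the largest rises of the called antiviral genes. Ifit3, one of the tetratricopeptide proteins that bind viral RNA, read 102, 35.5, 65.6 and 17.3 in saline pools and 300.2, 276, 225 and 243 in leptin pools. All leptin pools exceeded all saline pools, of which saline 2 and 4 lay under background, and with these set at background the signal was at least 4.22-fold higher with leptin (limma adjusted p = 0.00312). With the actin covariate the fitted log2 fold change was 2.16 against 2.29 without it, with an adjusted p of 0.0617.

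Rsad2, which encodes viperin, an enzyme that makes a chain-terminating nucleotide, read 120, 140, 108 and 100.4 with saline and 338, 334, 186 and 642 with leptin. The groups did not overlap, leptin 8 was highest and leptin 7 lowest, and the log2 fold change was 1.49 ± 0.29 (limma adjusted p = 0.00905). A second probe set rose by 1.44 (adjusted p = 0.000832), with pools of 63.3 to 74.4 against 173 to 224, and the other one was at 1.35 without passing (adjusted p = 0.0963). With the actin covariate Rsad2 was at 1.10 (adjusted p = 0.178).

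Rtp4, a receptor chaperone that also restrains some viruses, read 127, 167, 120.5 and 205 with saline and 382, 475, 358 and 459 with leptin. Even the lowest leptin pool exceeded the highest saline pool, and the log2 fold change of 1.41 ± 0.19 was called (limma adjusted p = 0.000706). It remained called in all 19 alternative settings that gave a value, with log2 fold changes from 1.16 to 1.55, the actin covariate included (1.43, adjusted p = 0.0211).

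**Figure D2:**
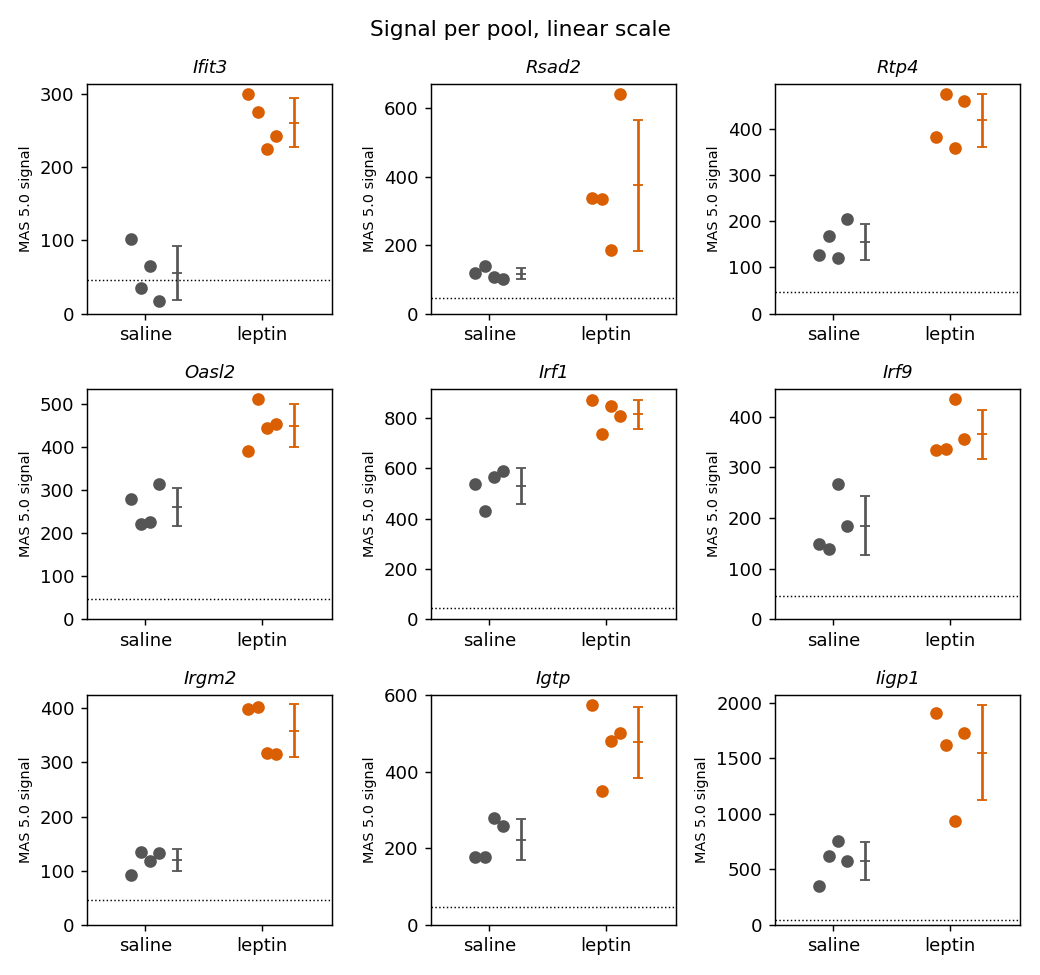
MAS 5.0 signal of 9 genes in each pool (grey saline, orange leptin, pools in label order within a group), with the mean and SD (n = 4) beside the points and the background of 46 as a dotted line. In each panel all 4 leptin points lie above all 4 saline points, and saline 2 and 4 of Ifit3 lie under the line.

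Oasl2, Parp14 and Ifitm3 rose less. Oasl2, an oligoadenylate synthetase-like protein, read 278, 221, 226 and 314 with saline and 390, 511, 444 and 453 with leptin. Its groups were apart, and the log2 fold change was 0.78 ± 0.15 (limma adjusted p = 0.00995). It was 1.02 with the actin covariate and stayed called (adjusted p = 0.0287), as in all 20 alternative settings (adjusted p up to 0.0454).

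Parp14, an ADP-ribosyltransferase of antiviral defence, read 143, 188, 187 and 204 with saline and 341, 346, 314 and 264 with leptin. These groups did not overlap, and the log2 fold change was 0.79 ± 0.16 (limma adjusted p = 0.013); with the actin covariate it was 0.65 (adjusted p = 0.182). A second, untested probe set had 3 saline pools under background and was at least 1.78-fold higher with leptin, with no overlap. Ifitm3, which blocks virus entry at endosomes, read 2499, 2887, 4208 and 3242 with saline and 5780, 4333, 4346 and 5253 with leptin. Its lowest leptin pool lay just above saline 3, and the log2 fold change was 0.63 ± 0.15 (limma adjusted p = 0.0268). It was 0.27 with the actin covariate (adjusted p = 0.458). The call was also lost with median centring, with no filter, with no trend in the variance, and without saline 1, 2 or 4 or leptin 5 or 8 (adjusted p up to 0.0777 without a pool).

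A further 10 of the antiviral genes other than sensors were tested and not called. Usp18, the protease that removes ISG15 and damps type I receptor signalling, read 67.7, 16.2, 125 and 127 with saline and 187, 148, 187.5 and 210 with leptin. The groups did not overlap, but the saline pools spread widely and the log2 fold change of 1.32 ± 0.44 did not pass (limma adjusted p = 0.0945). Xaf1, which promotes cell death, was at 0.73 ± 0.25 (adjusted p = 0.0964), Trim30a at 0.70 ± 0.27 (0.14) and Oas1a, whose product switches on RNase L, at 0.42 ± 0.14 (0.0954). With array weights Usp18 and Xaf1 passed (limma adjusted p = 0.044 and 0.0304). A second tested Xaf1 probe set was at 0.10 (limma adjusted p = 0.851). It read 77.5 to 122.8 with saline and 72.4 to 128.8 with leptin, so the probe sets of Xaf1 differed.

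Ifi35 was lowest in saline 3 (977, the others 1147 to 1176) and read 1292 to 1415 with leptin, so its groups were apart although the log2 fold change was small, at 0.26 ± 0.11 (limma adjusted p = 0.158). Ifi27l2a (0.44 ± 0.30), Ly6e (0.24 ± 0.13), Bst2 (0.12 ± 0.21) and Oasl1 (0.11 ± 0.16) had overlapping groups. With median centring the last 3 of these were at -0.01, -0.13 and -0.14. Bst2 encodes tetherin, which holds budding virus at the cell surface, and its 95% interval ran from -0.33 to 0.58.

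The probe sets of Samhd1, which encodes a nucleotide hydrolase that starves retroviruses, disagreed. Its brightest tested probe set (1420273_x_at) read 561, 517, 559 and 212 with saline and 312, 427, 384 and 640 with leptin, a log2 fold change of -0.02 ± 0.29. Probe set 1420272_at read 217 in saline 4 and 479 to 575 in the other saline pools, and 181.5 to 696 with leptin, at -0.18 (adjusted p = 0.814). Probe set 1418131_at read 224, 208, 236 and 194 with saline and 330.0, 303, 344 and 356 with leptin, and 1434438_at 202, 201, 237 and 211.5 with saline and 368.5, 344, 325 and 344 with leptin. Both had groups that did not overlap and rose, by 0.61 ± 0.14 and 0.68 ± 0.14 (limma adjusted p = 0.0203 and 0.0104).

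**Figure D3:**
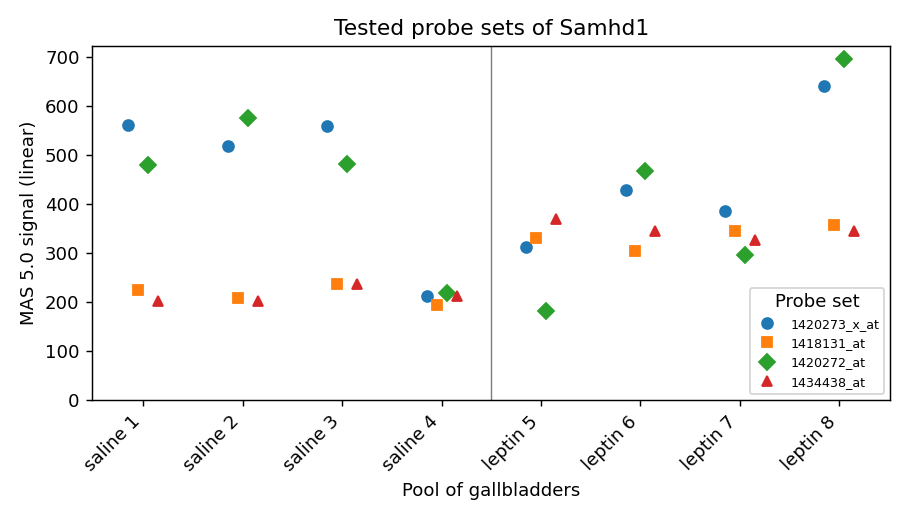
MAS 5.0 signal of the 4 tested probe sets of Samhd1 in each pool, with saline pools left of the line and leptin pools right. Probe sets 1418131_at and 1434438_at lie between 194 and 237 in saline pools and between 303 and 368.5 in leptin pools, while the other pair overlaps between treatments.

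Of the dim antiviral genes, Ifit1 and Mx1 had groups that did not overlap. The share of all dim probe sets with such groups was not counted, so the separation is not shown to be particular to these genes. Without the filter the median log2 fold change was 0.074 over 18193 genes, against 0.02 over the tested genes. Ifit1, which binds viral RNA lacking a methylated cap, read 67.7, 10.5, 40.4 and 32.9 with saline and 191, 161.5, 114 and 200 with leptin. With its 3 saline pools under background set at it, the signal was at least 3.21-fold higher with leptin. When no filter was applied Ifit1 was called too (limma adjusted p = 0.0205). Mx1, of a family of antiviral GTPases, read 20.8 to 61.4 with saline (3 pools under background) and 75.7 to 110 with leptin. It was at least 1.76-fold higher and did not pass in the fit without the filter (limma adjusted p = 0.159). Mx2 was under background in all 8 pools, and Ifit2 and Oas2 had overlapping groups. In Oas2 the leptin 8 pool read 11.3 against 101 to 157 in the other leptin pools.

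Of the interferon-gamma GTPase genes, 5 of 7 were called higher, against 4.29% of all tested genes. All 7 had log2 fold changes of at least 0.56. Gbp3, which was called, and Ifi47 would not have been tested from their saline pools alone, so these counts only describe. Irgm2, a regulatory member of the immunity-related GTPases, read 91.9, 135, 118 and 133 with saline and 399, 403, 317 and 315 with leptin. The lowest leptin pool was far above the highest saline pool, and the log2 fold change of 1.53 ± 0.17 was called (limma adjusted p = 0.000222). Irgm2 stayed called in all 19 alternative settings that gave a value, with an adjusted p of up to 0.0208 (the actin covariate, 1.29). Igtp, also named Irgm3, the neighbour of Irgm2, read 176, 178, 278 and 257 with saline and 576, 350.2, 482 and 501 with leptin. Its groups did not overlap, and the log2 fold change was 1.08 ± 0.20 (limma adjusted p = 0.00611; 0.84 and 0.138 with the actin covariate).

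Iigp1, an effector GTPase that coats and breaks parasite vacuoles, read 352, 618, 758 and 574 with saline and 1914, 1624.5, 933 and 1729 with leptin. Leptin 7 was lowest of its group yet above every saline pool, and the log2 fold change was 1.42 ± 0.24 (limma adjusted p = 0.00449). A second probe set rose by 1.65 (adjusted p = 0.00173), from 118 to 270.0 in saline pools to 391.5 to 751 in leptin pools. With the actin covariate the value of the brightest probe set was 0.68 (adjusted p = 0.154).

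The guanylate-binding proteins Gbp3 and Gbp2 rose as well. Gbp3 read 43.3, 83.7, 53.1 and 57.7 with saline and 168, 98, 152 and 142 with leptin, with saline 1 under background. The groups did not overlap, and the log2 fold change was 1.14 ± 0.27 (limma adjusted p = 0.0259). Gbp2 read 181, 237, 271 and 216 with saline and 325, 394, 359 and 344 with leptin, again with no overlap, and rose by 0.65 ± 0.16 (limma adjusted p = 0.0264).

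A second Gbp2 probe set rose by 0.83 (limma adjusted p = 0.049). Gbp3 was not called without saline 1, 3 or 4 or leptin 8 (adjusted p up to 0.0655), nor under quantile or loess scaling or without the filter. Gbp2 was not called without saline 1, 2 or 4 or leptin 6 or 8 (up to 0.0793), nor with median centring. With the actin covariate the log2 fold changes were 0.89 for Gbp3 and 0.59 for Gbp2 (adjusted p = 0.278 and 0.211).

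Ifi47 and Irgm1 missed the threshold. Ifi47, also called Irg-47, read 12.9, 86.9, 27.3 and 143.5 with saline and 228, 247, 105 and 284.5 with leptin. Saline 4 exceeded leptin 7, and the fitted log2 fold change of 1.88 ± 0.53 had a limma adjusted p of 0.0508. With 2 saline pools at background the signal was at least 2.82-fold higher. It passed in 5 of 19 alternative settings, among them without saline 4 or leptin 7. Irgm1, which guards host membranes from the effector GTPases, read 275 to 424 with saline and 421 to 706 with leptin, at 0.56 ± 0.18 (adjusted p = 0.086), the groups touching only at saline 3 and leptin 5.

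**Figure D4:**
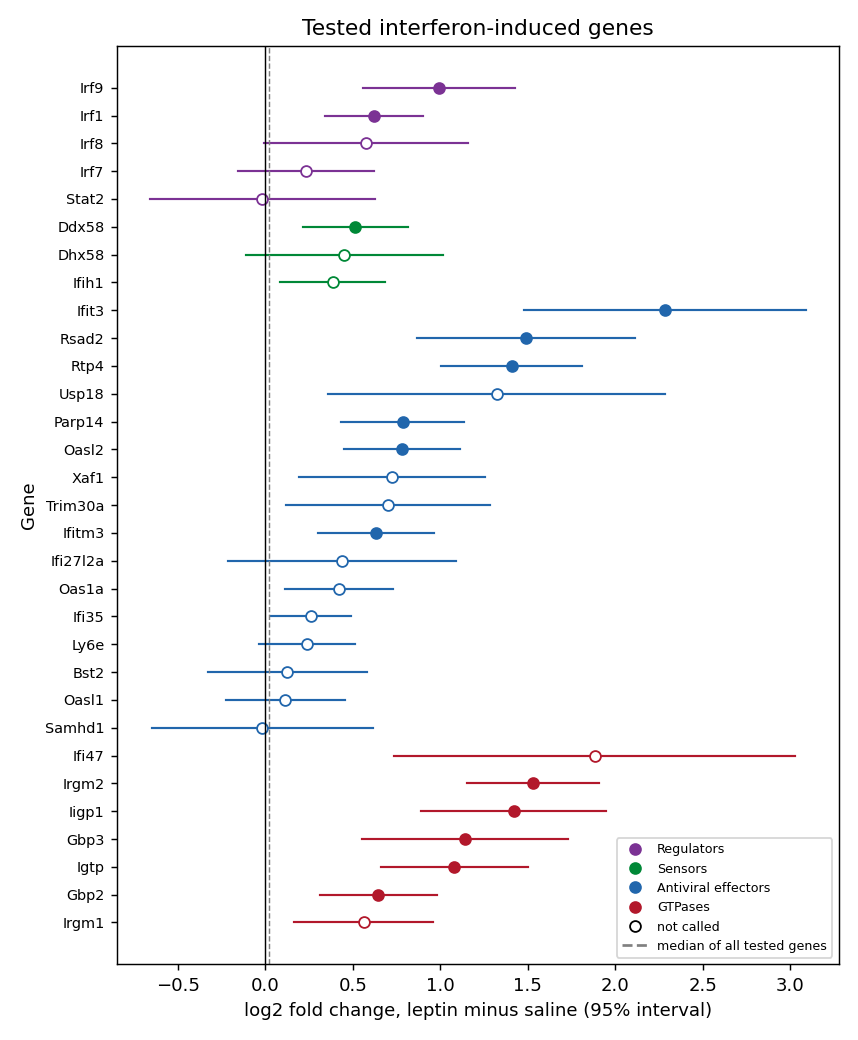
Log2 fold change of the 31 tested genes, leptin minus saline, with 95% intervals from limma; filled points are called, open points are not, and the dashed line is the median of all tested genes (0.02). The GTPases lie from 0.56 to 1.88 and the antiviral genes and sensors from -0.02 to 2.29.

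Counts of calls were lower with the actin ratio in the model. The ratio nearly separated the treatments (1.498 to 1.683 with saline, 1.674 to 2.172 with leptin), so its part and that of leptin cannot be told apart well. A lost call need not be a smaller value: Irf1 went from 0.62 to 0.63 and Irf9 from 0.99 to 1.04. In the fit with the covariate 2 antiviral genes (Rtp4 and Oasl2), 1 GTPase (Irgm2) and 0 regulators were called by limma, and 411 tested genes in all, against 969 without the covariate. The median log2 fold change was 0.43 over the antiviral genes and 0.84 over the GTPases. Among members not called in either fit, the covariate put Stat2 at -0.71 (limma adjusted p = 0.341), Ifi47 at 1.28 (0.405), Ifih1 at 0.11 (0.801) and Trim30a at 0.32 (0.706). It put Ifi27l2a at 0.27, and Bst2 and Ly6e, with larger values than without it, at 0.38 and 0.42 (adjusted p = 0.54 and 0.224). Without leptin 7 the counts were 7 antiviral genes, 6 GTPases and 2 regulators. The GTPase count was 3 without saline 1 and 3 without leptin 8.

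**Figure D5:**
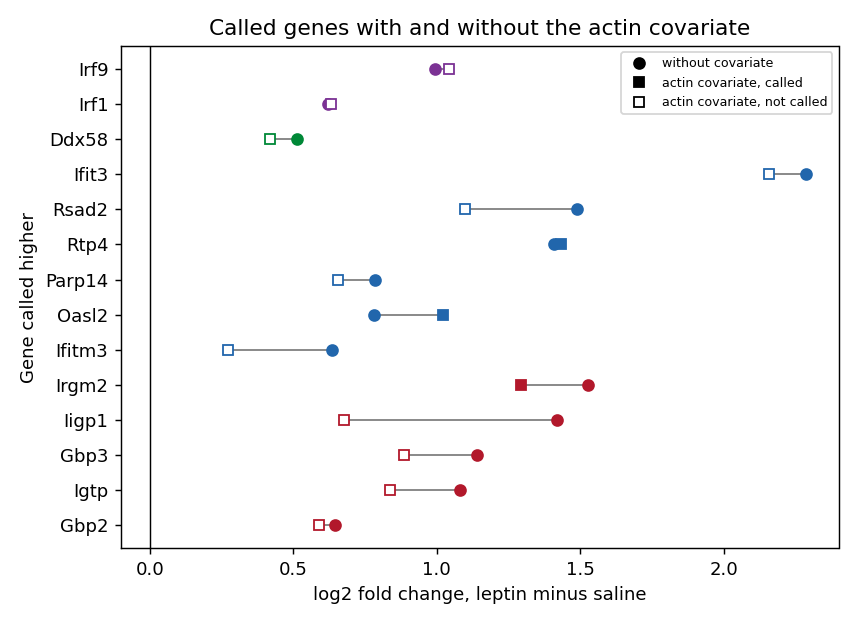
Log2 fold change of the 14 called genes without (circles) and with (squares) the actin 3' to 5' ratio as a covariate; filled squares are called in the second fit. Rtp4, Oasl2 and Irgm2 stay called, and Iigp1 moves from 1.42 to 0.68.

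Genes of the pathway outside the set came from further lists. Of the ligands, receptors and kinases, 0 of 11 tested genes were called by limma, against 8.27% of all tested genes in either direction. With so few genes, 0 calls does not show that the list was unchanged. At an unadjusted p below 0.05 there was 1 (Tyk2). The receptor chain genes were at -0.002 ± 0.201 (Ifnar1), 0.28 ± 0.19 (Ifnar2), -0.27 ± 0.19 (Ifngr1), 0.01 ± 0.13 (Ifngr2), -0.16 (Ifnlr1) and 0.14 (Il10rb). The kinases Jak1, Jak2 and Tyk2 were at -0.08, 0.27 and 0.41, and Tyk2, at 236 to 252 with saline and 312 to 350.3 with leptin, had groups that did not overlap (limma adjusted p = 0.0759). With the mean of a gene's probe sets, Ifnar2 and Tyk2 were called (adjusted p = 0.0225 and 0.0346), and Ifnar2 ranged from -0.15 to 0.57 over the alternatives. Interferon gamma itself (Ifng) lay under background in 7 of 8 pools, with 68.3 in leptin 7, and Ifnb1 read 41.4 to 84.1 with saline and 25.5 to 81.2 with leptin. Ifna1 was at 0.07. Ifna2 read 63.4 to 207.1 with saline and 13.9 to 217.6 with leptin, where 2 pools lay under background. The groups overlapped, and leptin 7 and leptin 8 (207.8 and 217.6) lay above every saline pool. The fitted log2 fold change of Ifna2 was -0.59 ± 0.67 (limma adjusted p = 0.634). It ranged from -1.07 to 0.05 over the alternatives, so no direction of change is shown.

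In the list of sensing and induction genes, 0 of 10 tested were called by limma, and 2 were at an unadjusted p below 0.05. Over all tested genes 8.27% were called in either direction, so 0 of 10 does not show this list to be unchanged. Among the brakes, a list that also holds Usp18, 1 of 7 was called, too few genes to set against that share. This was Irf2, a repressor that competes with Irf1 for its sites. Irf2 read 205, 174, 144 and 208 with saline and 323, 422, 383 and 355 with leptin, with no overlap. It rose by 1.00 ± 0.16 (limma adjusted p = 0.00312) and was called in every alternative setting that was run, the actin covariate included.

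Of 25 other tested induced genes, 5 were called higher and 0 lower by limma (0 also at an unadjusted p below 0.05). The shares over all tested genes were 4.29% higher and 3.98% lower, so 0 lower of 25 is near its share. Trim34a rose by 1.06 ± 0.17, from 106.5 to 131.5 in saline pools to 211 to 297 in leptin pools, and Gbp7 by 1.05 ± 0.19, from 115 to 196 to 263 to 392 (limma adjusted p = 0.00305 and 0.007). Phf11d, Dtx3l, a ubiquitin ligase, and Ifitm1 rose by 0.74 ± 0.19, 0.56 ± 0.13 and 0.54 ± 0.12 (adjusted p = 0.0366, 0.0206 and 0.0219). The Phf11d call was lost in 13 alternative settings, that of Ifitm1 in 7 and that of Dtx3l in 6, and those of Gbp7 and Trim34a only with the actin covariate (limma adjusted p = 0.164 and 0.0849).

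Lists of white blood cell markers other than that of T and NK cells also held genes called higher with leptin. Over all tested genes 4.29% were called higher. Of the macrophage list 11 of 12 were called higher, and its summed signal was 6230 to 7675 in saline pools and 12901 to 15796 in leptin pools. The 3 general leukocyte genes (Ptprc, Cd53 and Coro1a) rose, with Ptprc at 196 ± 45.3 (SD, n = 4) with saline and 964 ± 90.0 (SD, n = 4) with leptin. Their summed signal was 441 to 654.5 and 2182.2 to 2320.1. Of the dendritic cell list 1 of 2 tested genes was called higher (summed signal 240.5 to 362 and 623.5 to 771), of the neutrophil list 3 of 4 (453 to 721 and 2225 to 4094) and of the B and plasma cell list 4 of 4 (378 to 485 and 12719 to 20633).

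Of the plasmacytoid dendritic cell list, whose cells are known for type I interferon, 2 of 3 were called higher (Tcf4 and Spib; summed signal 829 to 1131 and 1364.5 to 1424.5), but the defining markers Siglech and Ccr9 lay under background in 6 and 5 of 8 pools. Of the T and NK cell list 0 of 3 tested genes were called by limma (2 at an unadjusted p below 0.05), with a summed signal of 654 to 843 with saline and 917 to 1342 with leptin, and Cd3d, Cd3e, Cd4, Cd8b1, Nkg7 and Gzmb lay under background in most pools. Of the neutrophil list the called genes were S100a8, S100a9 and Csf3r, and the granule genes did not rise with them. Ngp was at 0.001 (limma adjusted p = 0.999), Mpo and Elane were too dim to test and had overlapping groups, and Camp lay under background in all 8 pools. Adipocyte genes gave 0 limma calls of 3 (1 lower at an unadjusted p below 0.05; summed signal 504 to 3713 and 822 to 1667) and smooth muscle genes 0 of 5 (2 lower; 29381 to 39430 and 29527 to 36903). Endothelial genes gave 0 limma calls of 6 (1 at an unadjusted p below 0.05; summed signal 1220 to 1542 and 1470 to 1968), and gallbladder epithelial genes 3 lower of 9 (40413 to 50286 and 34075 to 38361). Over all tested genes 4.29% were called higher and 3.98% lower. The part of these cell types in the interferon genes was not tested.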

How the data were processed

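Gallbladder RNA was measured on 8 arrays, 1 per pool of 3 mice. The deposited values are array signal intensities, made with MAS5 per the submitters' processing notes and on a linear scale with a common trimmed mean; the version and the detection calls are not stated in these sources. Arrays were brought to a common 2% trimmed mean, and log2(signal + 8.2) was taken, 8.2 being the 10th percentile of all values. Control probe sets (64) were removed, and probe sets at or above the median mean were tested (22519). Leptin was compared with saline with limma 3.58.1 in R 4.3.3 (lmFit, eBayes with trend). Two-sided p-values were adjusted by the Benjamini-Hochberg method across the whole tested table, and 0.05 was the limit for a call. The fit was tested on simulated data.

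Gene names came from the platform annotation, updated through RefSeq: 34945 probe sets had 1 symbol, 932 several and 9224 none. A gene was read from its brightest probe set. Background (46) was the 95th percentile of 27 controls for absent sequences; a fold is given as a bound if 2 or more pools of either group were below it. The number of arrays limits the precision. All members are named, with further probe sets where their call differs, called genes of the other lists (up to 6 per list), and all tested ligand, receptor and kinase genes. Of marker lists, the counts and up to 3 genes by signal are named, and genes under background. The members and lists were chosen with earlier results of these data known. Alternatives covered scaling, pseudocount, filter, variance model, array weights, the actin covariate, the probe set rule, the threshold and leaving out each pool.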

Additional observations from a re-analysis of the deposited data

Results flagged for a closer look

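In 74 groups of 4 pools (37 genes, each treatment), 5 held a pool far from the other 3 by Dixon's gap test; chance alone gives this in about 1 in 20 groups. Ifi35 was 977.4 in saline 3, the others lying between 1147.1 and 1175.9. Ifih1 was 468.9 in saline 3 against 490.7 to 491.9, a small difference in a tight group. Samhd1, on its brightest probe set, was 212.4 in saline 4 against 516.9 to 560.6. Oas2, too dim to test, was 79.7 in saline 2 against 50.1 to 53.7. Stat2 was 51.2 in leptin 7 against 124.5 to 145.7, in the pool that also stands apart on the second principal component.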

How the results depend on the processing

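No paired analysis was possible because the saline and leptin pools share no replicate number, so no fit with a replicate block exists. The analysis as reported called 7 antiviral genes, 5 GTPases, 2 regulators and 6 other pathway genes higher and 969 genes in all; 0 antiviral genes were called lower in any setting run. Median centring moved the median of all genes from 0.02 to -0.23 and gave 1 regulator, 3 other pathway genes, 2381 genes in all (10.7% of them higher, against 51.9%) and an antiviral median of 0.27. There Bst2 was at -0.13, Irf7 at -0.019, Ly6e at -0.012 and Oasl1 at -0.14. The 75th percentile filter, which tests fewer genes, gave 3 antiviral genes, 3 GTPases, 1 regulator, 3 other pathway genes and medians of 0.42 (antiviral) and 0.86 (GTPases). The actin covariate gave 2, 1, 0 and 1, with 411 genes in all (36.3% higher) and medians of 0.43 and 0.84, and put Stat2 at -0.71, Irf7 at -0.17, Irf8 at -0.061 and Samhd1 at 0.02. A threshold of 0.01 gave 4, 3, 0 and 3, with 337 in all. No variance trend called 639 genes (64.5% higher). The mean of a gene's probe sets gave 10 other pathway genes and Samhd1 at 0.27. Oasl1 was at -0.014 with quantile scaling, and Stat2 at 0.001 with pseudocount 32 and 0.10 with array weights. Leaving out 1 pool gave 3 to 6 GTPases, 3 to 7 other pathway genes, 548 (without leptin 6) to 883 genes in all, and ranges of -0.046 to 0.30 for Bst2, -0.35 to 0.13 for Samhd1 and -0.16 to 0.30 for Stat2. Beyond fewer genes tested, fewer pools or the stricter threshold, the cause was not tested.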
